A study of Mus musculus with 29 samples.

Results

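The genes described here are 10 transporters that move bile acids and organic anions across the hepatocyte membrane, out of 22187 gene IDs measured in mouse liver and liver tumours. They were chosen by name, as 5 uptake genes (Slc10a1, Slco1a1, Slco1a4, Slco1b2 and Slco2b1) and 5 export genes (Abcb4, Abcb11, Abcc2, Abcc3 and Abcc4), and all 10 were found in the deposited table. In tumours the uptake genes were lower than in non-tumour liver with average log2 differences between -2.44 and -3.62, the bile salt and phospholipid exporters Abcb11 and Abcb4 by smaller amounts, and Abcc2 and Abcc4 were higher.

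Hepatocytes take up bile acids, bilirubin, hormones and drugs from sinusoidal blood through the sodium-dependent transporter NTCP, encoded by Slc10a1, and the sodium-independent organic anion transporters OATP, encoded by Slco genes. At the opposite, canalicular membrane, BSEP (Abcb11) pumps bile salts, MDR2 (Abcb4) moves phosphatidylcholine and MRP2 (Abcc2) exports conjugated anions into bile. MRP3 (Abcc3) and MRP4 (Abcc4) sit in the basolateral membrane and return conjugates and bile acids to blood.

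All animals were C57BL/6 mice injected at 2 weeks of age with 25 mg/kg diethylnitrosamine (DEN), a liver carcinogen, so the controls carry the carcinogen too. The labels name 2 tissues, tumour and non-tumour liver, 2 treatments, HFD and HFD_alcohol (called alcohol below), and 2 genotypes, WT and IL17RA-/-, the latter named for loss of a receptor of the cytokine IL-17A. Feeding lasted 18 weeks. The series text describes liquid ethanol feeding or pair-feeding, while every label names HFD, and the labels were used. Non-tumour liver had 3 WT and 3 IL17RA-/- libraries on HFD and 5 and 5 on alcohol, 16 in all. Tumours had 3 and 3 on HFD and 3 and 4 on alcohol, 13 in all. Which libraries come from the same animal is not labelled, and the p-values therefore cover only library-to-library spread, part of which may be technical.

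Values are in CPM, the reads of a gene scaled to a common library total. Non-tumour libraries had recovered totals of 4653422 to 9660584 counts, tumours 3213696 to 9169116, and 3 counts corresponded to 0.311 to 0.934 CPM. Il17ra itself was not lower in the libraries labelled IL17RA-/-: it was at 15.9 to 37 CPM in these and 16.1 to 42.5 in WT non-tumour liver, and at 42.4 to 62.9 against 22.9 to 48.5 CPM in tumours, with the smallest limma adjusted p at 0.0562. Reads summed over a gene would not reveal a deletion of single exons, and every direction between genotypes below rests on the label. All 12 hepatocyte markers were detected in both tissues, and their summed level was 98131 to 149810 CPM in non-tumour liver and 125817 to 260002 CPM in tumours. Some libraries stood apart, and 4 were doubted in earlier work on these data, after their values were seen: in tumours WT HFD replicate 4 and IL17RA-/- alcohol replicate 5, and in non-tumour liver replicate 1 of WT HFD and replicate 3 of IL17RA-/- HFD. WT HFD tumour replicate 4 had the lowest summed hepatocyte markers among tumours and the highest level of 4 of the 5 uptake genes, and IL17RA-/- alcohol non-tumour replicates 2 and 4 had summed Kupffer cell markers of 252 and 246 CPM against 716 to 1957 CPM in the other non-tumour libraries.

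Promoter sequence was available for 9 of the 10 genes in RefSeq (GRCm38.p6), and Abcc3 was not matched. The 250 bases before the annotated start are shown for the uptake genes Slco1b2 and Slco1a1, which were reduced most in tumours, for Abcb11, which was reduced less, and for Abcc4, which was raised. They are written 5′ to 3′ on the coding strand. Capitals mark GTTAAT, part of the site of the liver factor HNF1, in Slco1b2 (chr6:141629268-141629517, plus strand); AGGTCA or its reverse complement, the hexamer read by nuclear receptors, in Slco1a1 (chr6:141946963-141947212, minus strand) and Abcb11 (chr2:69342617-69342866, minus strand); and TGACNNNGC, the antioxidant response core, as its reverse complement in Abcc4 (chr14:118706220-118706469, minus strand).
Slco1b2: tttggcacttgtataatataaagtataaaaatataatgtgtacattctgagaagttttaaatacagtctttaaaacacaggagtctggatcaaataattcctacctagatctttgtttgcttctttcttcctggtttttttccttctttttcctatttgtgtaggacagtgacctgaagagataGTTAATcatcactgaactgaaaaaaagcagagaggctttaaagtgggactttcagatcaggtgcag
Slco1a1: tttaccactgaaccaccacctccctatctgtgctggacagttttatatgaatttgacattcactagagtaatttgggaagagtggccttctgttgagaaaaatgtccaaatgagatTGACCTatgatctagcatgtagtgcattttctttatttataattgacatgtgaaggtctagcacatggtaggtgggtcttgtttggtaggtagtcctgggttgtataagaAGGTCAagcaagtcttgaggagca
Abcb11: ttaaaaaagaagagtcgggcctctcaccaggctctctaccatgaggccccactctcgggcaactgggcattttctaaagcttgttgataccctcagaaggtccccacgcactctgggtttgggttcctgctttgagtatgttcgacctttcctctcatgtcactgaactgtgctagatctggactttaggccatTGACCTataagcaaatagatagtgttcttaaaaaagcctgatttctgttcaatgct
Abcc4: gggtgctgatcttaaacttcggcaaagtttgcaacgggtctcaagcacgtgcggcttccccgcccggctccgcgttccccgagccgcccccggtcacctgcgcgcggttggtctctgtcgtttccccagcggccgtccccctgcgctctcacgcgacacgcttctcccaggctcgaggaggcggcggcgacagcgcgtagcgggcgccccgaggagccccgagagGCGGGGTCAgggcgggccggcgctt

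On both strands, GTTAAT was found in 6.52% of all 27018 promoters of the same length, AGGTCA in 13.8% and TGACNNNGC in 10.2%. GTTAAT occurred in Slco1b2 only among the 9 genes, AGGTCA in Slco1a1, Slco1b2, Abcb11 and Abcc2, and TGACNNNGC in Abcc2 and Abcc4. Both Abcc2 matches lay inside the GENCODE transcript, which starts 116 bases before the RefSeq start. The inverted repeat read by the bile acid receptor FXR is AGGTCA and TGACCT with 1 base between them. An exact match to it was in 0.0074% of all promoters and in 0 of these 9. So rare a string could hardly be met in 9 windows, and inexact copies were not searched, so this count says nothing about FXR sites. In Abcb11 the letters before the marked hexamer, aggccat, differ from that repeat by 1 letter. The windows differed in composition. The Abcc4 window was 72% G or C with 35 CpG dinucleotides and that of Abcb4 61.6% with 18, against a median of 52% and 6 over all promoters. The windows of Slco1b2, Slco1a4 and Slco1a1 held 33.6%, 39.2% and 40.4% with 0 CpG. These matches describe the letters in the windows only.

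Levels were compared between genes per kilobase of annotated exon. In non-tumour liver the order was Slco1b2 at 380 ± 65.8 CPM per kilobase (SD, n = 16 libraries), Slc10a1 at 140.4 ± 33.9, Abcb11 at 137 ± 29.1, Abcc2 at 95.9 ± 10.5, Abcc3 at 77.1 ± 16.3, Slco1a1 at 61.7 ± 50.5, Abcb4 at 57.2 ± 11.1, Slco2b1 at 27.9 ± 3.18, Slco1a4 at 5.69 ± 4.24 and Abcc4 at 3.33 ± 1.5. Slc10a1 and Abcb11 did not differ beyond their spread, nor did Slco1a1 and its neighbours Abcc3 and Abcb4. In tumours (n = 13) the order was headed by the export genes Abcc2 at 129 ± 27.2, Abcc3 at 57.3 ± 24.6 and Abcb11 at 54.8 ± 20.8 CPM per kilobase. Slco1b2 followed at 44.9 ± 38.1, Abcb4 at 29 ± 10.5, Slc10a1 at 18.9 ± 14.5, Abcc4 at 10.6 ± 8.43, Slco2b1 at 4.41 ± 4.07, Slco1a1 at 3.58 ± 2.59 and Slco1a4 at 0.963 ± 0.635. Abcc3, Abcb11 and Slco1b2 lay within each other's spread there. The most abundant of the 10 was thus an uptake gene in non-tumour liver and a canalicular exporter in tumours.

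The comparison of tumour with non-tumour liver was made in each of the 4 combinations of diet and genotype and as their mean, with limma on log2(CPM + 1). In the mean, 8 members were called lower and 2 higher at an adjusted p under 0.05. Over all 13586 genes tested, 27% were called lower and 36.6% higher (63.6% called in either direction), so a call as such is common in this comparison. The share of all genes whose tissue ranges did not overlap was not computed. Where the tissues are said below not to overlap, this describes the gene only and does not set it apart from other genes. All 5 uptake genes were lower, with a median log2 difference of -3.13. Of the 5 export genes 3 were lower and 2 higher, with a median of -0.50, and the median over all genes was 0.09. All 10 calls held without the 4 doubted libraries and in each of 29 fits that left out 1 library. Values come from bulk tissue, in which fewer cells of a type and less RNA per cell cannot be told apart.

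Slc10a1 (ENSMUSG00000021135, chr12:80953183-80968705, GRCm38, minus strand), the main sodium-dependent bile salt uptake carrier, was at 157, 399.9 and 207 CPM in WT HFD and 248.5, 346 and 250.4 in IL17RA-/- HFD non-tumour liver. On alcohol it was at 305, 354, 410.3, 281 and 369 in WT and 249.7, 379, 303, 398 and 284 in IL17RA-/- non-tumour liver. Tumours were at 121, 9.67 and 32.2 (WT HFD), 18.7, 35 and 53.7 (IL17RA-/- HFD), 32.6, 15.5 and 24.7 (WT alcohol) and 27.8, 65.4, 19.7 and 84.6 CPM (IL17RA-/- alcohol). Every tumour lay below every non-tumour library, and the tissue means of 309 and 41.5 CPM differed by 7.43 times. On the log2(CPM + 1) scale Slc10a1 fell by 3.13 ± 0.27 (SE, adjusted p = 2.92e-10 by limma).

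Slco1b2 (ENSMUSG00000030236, chr6:141629518-141686646, plus strand), the liver-specific OATP for bile acids, bilirubin and many drugs, was the most abundant member in non-tumour liver in CPM per kilobase. Non-tumour libraries held 1159.8, 2179 and 1809 CPM in WT HFD, 1983, 2475 and 1453 in IL17RA-/- HFD, 1596, 1865, 1745, 2106 and 2204 in WT alcohol and 1768, 1979, 1745, 2199 and 1736 in IL17RA-/- alcohol liver. Tumours held 629, 167 and 217 CPM in WT HFD, 59.9, 167 and 62.9 in IL17RA-/- HFD, 39, 164 and 124 in WT alcohol and 151, 544, 136 and 417 in IL17RA-/- alcohol. The tissues did not overlap, but the ratio of the highest to the lowest library was larger among tumours than in non-tumour liver. Slco1b2 fell by 3.55 ± 0.24 on the log2 scale (adjusted p = 6.68e-12, limma), from a mean of 1875 to 221 CPM.

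Slco2b1 (ENSMUSG00000030737, chr7:99657804-99711340, minus strand), a broadly expressed OATP of the sinusoidal membrane, was the steadiest uptake gene in non-tumour liver, at 133 to 202 CPM (median 164) in the 16 libraries. Of the 13 tumours, 10 were at 12.3 to 19.8 CPM. The others were WT HFD replicate 4 at 98.6 and IL17RA-/- alcohol replicates 6 and 7 at 31.5 and 51.6. The tissues did not overlap, and Slco2b1 fell by 2.91 ± 0.20 (adjusted p = 8.53e-12, limma).

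Slco1a1 (ENSMUSG00000041698, chr6:141907282-141946962, minus strand) encodes an OATP known to be higher in male than in female mouse liver. It was the most variable member in non-tumour liver, at 134, 488 and 38.8 CPM in WT HFD, 449.9, 79.9 and 57.2 in IL17RA-/- HFD, 260.2, 497, 139.8, 338 and 502 in WT alcohol and 53.2, 967, 87.9, 665 and 454 in IL17RA-/- alcohol liver. Tumours were at 53, 6.95 and 10.7 (WT HFD), 5.54, 19.9 and 6.95 (IL17RA-/- HFD), 7.71, 24.4 and 34.8 (WT alcohol) and 23, 10.2, 17.1 and 25.5 CPM (IL17RA-/- alcohol). The tissues overlapped by a single tumour, WT HFD replicate 4, which lay above the lowest non-tumour library of the same diet and genotype. The mean fell 17.2 times, from 326 to 18.9 CPM, and the log2 difference was -3.62 ± 0.46 (adjusted p = 2.31e-07, limma). Slco1a4 (ENSMUSG00000030237, chr6:141805440-141856199, minus strand), a paralog in the same chromosome 6 cluster that transports bile salts and digoxin, was low throughout. It was at 12.6 to 129 CPM (median 27.9) in non-tumour liver and 1.49 to 14.2 CPM (median 5.1) in tumours, overlapping by 1 tumour, and fell by 2.44 ± 0.28 (adjusted p = 4.65e-08, limma). Slco1a1, Slco1a4, Slco1b2 and their neighbours are related in sequence, and the recovered counts of Slco1a1 and Slco1a4 were whole numbers in only 15 of 29 libraries each, so how reads were divided among copies is uncertain for these 2 genes. Those of Slco2b1 and Abcb4 were whole in 20 and 21 libraries.

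**Figure D1:**
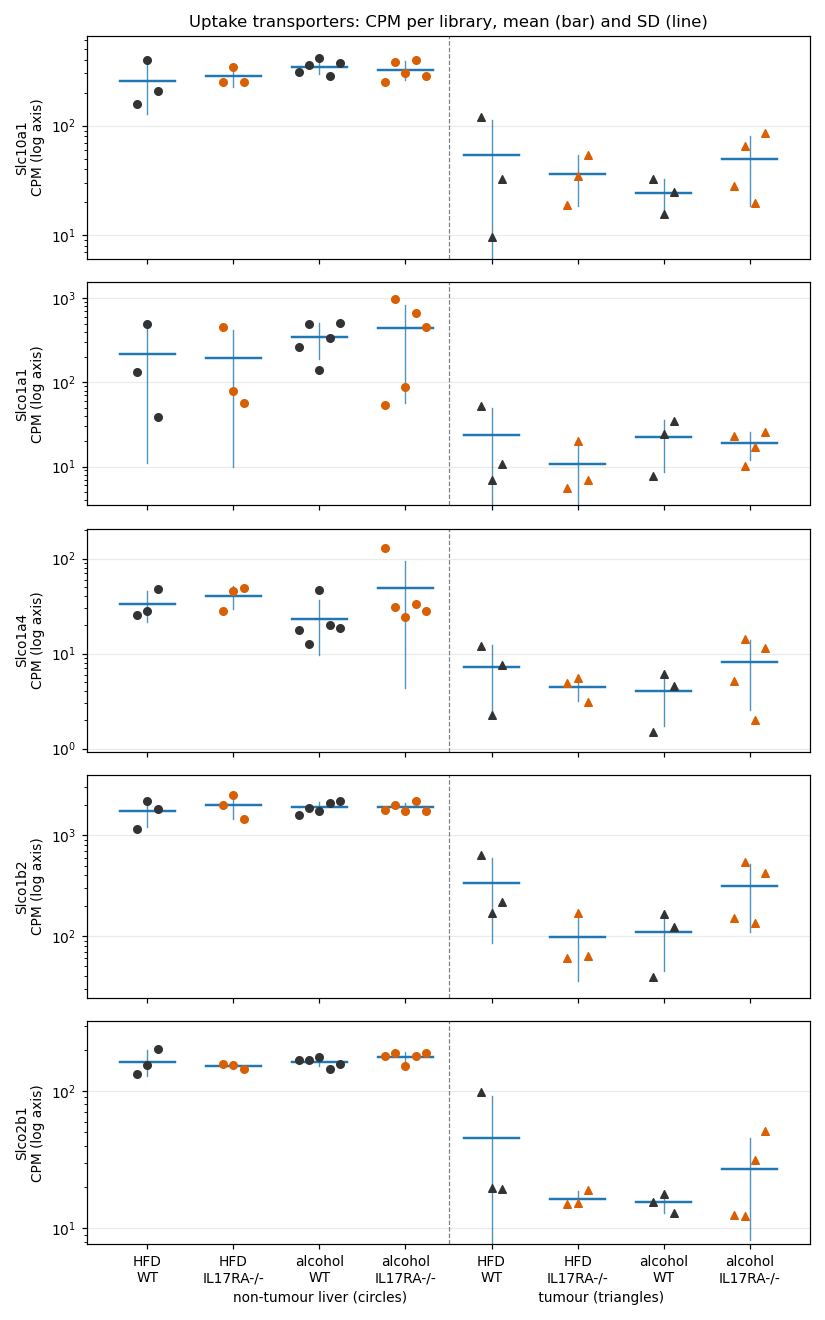
CPM of the 5 uptake genes (log axes) in each of the 29 libraries by group; circles are non-tumour and triangles tumour libraries, bars are group means and vertical lines SD. For Slc10a1, Slco1b2 and Slco2b1 every tumour lies below every non-tumour library, and Slco1a1 spreads from 38.8 to 967 CPM in non-tumour liver. The share of all genes that separate the tissues in this way was not computed.

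The canalicular exporters changed less. Abcb11 (ENSMUSG00000027048, chr2:69238282-69342616, minus strand), the bile salt export pump, was at 706, 715 and 486 CPM in WT HFD, 656, 617 and 459 in IL17RA-/- HFD, 580.5, 1018, 732, 704 and 696 in WT alcohol and 614, 958, 716, 881 and 729 in IL17RA-/- alcohol non-tumour liver. Tumours were at 387, 115 and 289 (WT HFD), 184, 317 and 161 (IL17RA-/- HFD), 177, 365 and 351 (WT alcohol) and 237, 409, 223 and 449.6 CPM (IL17RA-/- alcohol). The highest tumour lay just below the lowest non-tumour library. Abcb11 fell by 1.38 ± 0.17 (adjusted p = 1.10e-07, limma), a ratio of tissue means of 2.5. Its recovered counts were whole in 8 of 29 libraries, so some of its reads were shared with another annotated gene.

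Abcb4 (ENSMUSG00000042476, chr5:8893717-8959231, plus strand), which flops phosphatidylcholine into bile, was at 330.1 to 703 CPM (median 548) in non-tumour liver and 179 to 526.5 CPM (median 229) in tumours. It fell by 1.05 ± 0.14 (adjusted p = 3.03e-07, limma). Only WT HFD tumour replicate 4, at 526.5 CPM, and IL17RA-/- alcohol tumour replicate 5, at 383, lay above the lowest non-tumour library. The 3 WT alcohol tumours were nearly equal, at 205, 205 and 204 CPM. Abcc2 (ENSMUSG00000025194, chr19:43782192-43840740, plus strand), which exports bilirubin glucuronide and glutathione conjugates, went the other way, from 678 to 1064 CPM (median 819) in non-tumour liver to 702 to 1597 CPM (median 1134) in tumours. Its rise of 0.41 ± 0.09 (adjusted p = 0.000432, limma), a ratio of means of 1.35, was small beside the falls above, and the ranges overlapped.

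The basolateral exporters also differed from each other. Abcc3 (ENSMUSG00000020865, chr11:94343295-94392997, minus strand), which returns glucuronides to blood, was at 217 to 554 CPM (median 427) in non-tumour liver and 144 to 684 (median 307) in tumours, and fell by 0.50 ± 0.16 (adjusted p = 0.00864, limma). Abcc4 (ENSMUSG00000032849, chr14:118482692-118706219, minus strand), a pump for conjugated bile acids and cyclic nucleotides, was the least abundant member in non-tumour liver per kilobase. It was at 26.3, 19.8 and 36.8 CPM in WT HFD, 10.2, 25.8 and 19.3 in IL17RA-/- HFD, 25.3, 11, 28.3, 18.2 and 16.3 in WT alcohol and 23.6, 4.74, 34.6, 8.01 and 32.6 in IL17RA-/- alcohol non-tumour liver. Tumours were at 183, 151 and 119 (WT HFD), 17, 28.3 and 47.2 (IL17RA-/- HFD), 93.5, 42.8 and 12.6 (WT alcohol) and 22.9, 37, 61.2 and 64.1 CPM (IL17RA-/- alcohol). The 3 WT HFD tumours were above all other libraries, while tumours of the other groups overlapped non-tumour liver. Abcc4 rose by 1.35 ± 0.29 (adjusted p = 0.000267, limma), a ratio of means of 3.18.

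**Figure D2:**
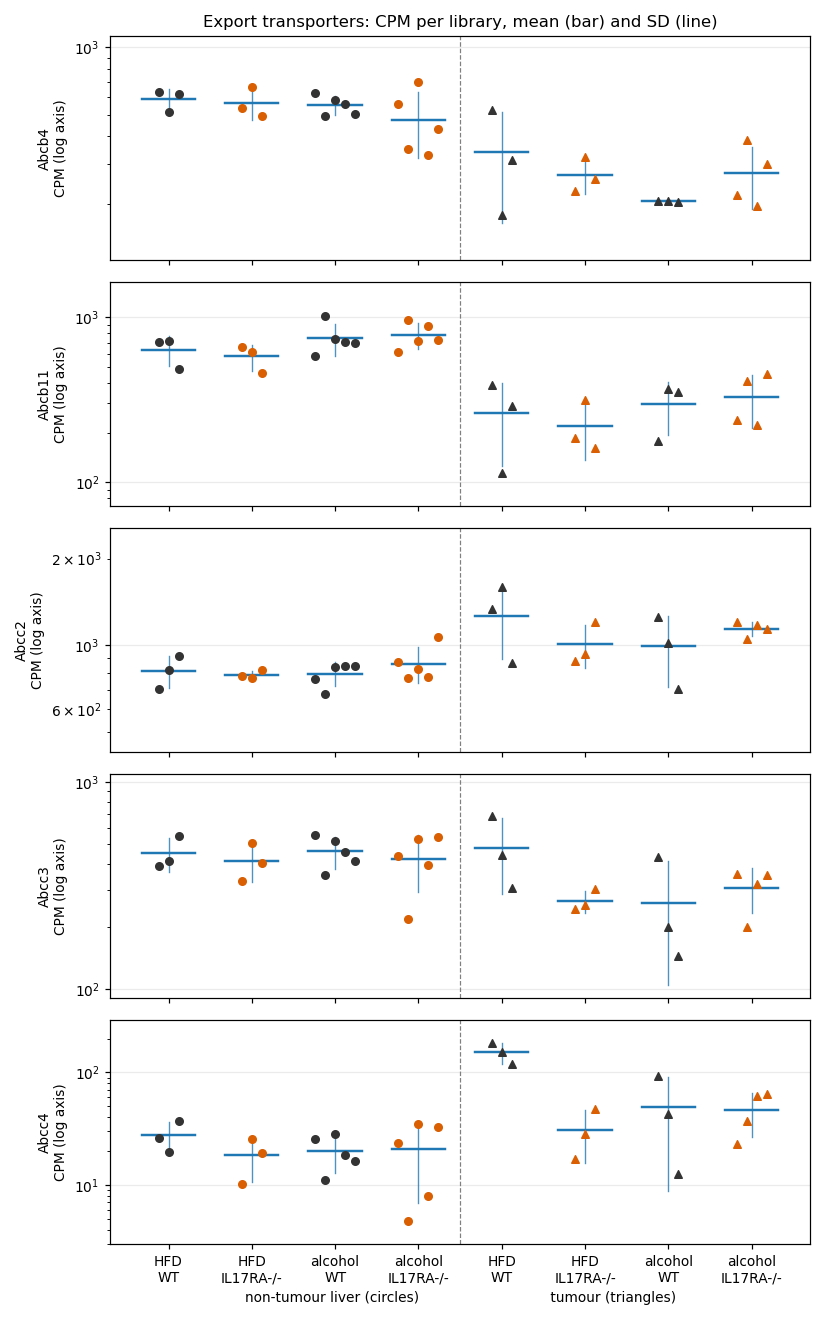
CPM of the 5 export genes (log axes) in each library, drawn as for the uptake genes. Abcb11 is lower in every tumour than in any non-tumour library, and for Abcc4 the 3 WT HFD tumours, at 119 to 183 CPM, lie above all other libraries.

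Within the single combinations the uptake genes were lower in tumours in all 4, and so were Abcb4 and Abcb11. In WT alcohol 8 members were called, all lower (19.2% of all genes called lower, 35.7% in either direction). In IL17RA-/- alcohol 7 were lower and 2 higher (18.1% and 21.8% of all genes, 39.9% in either direction). In WT HFD 7 were lower and 2 higher (7.61% and 7.64%, 15.3% together), and in IL17RA-/- HFD 7 lower and 0 higher (16.5% and 23.9%, 40.4% together). Abcc3 was called lower in WT alcohol alone, at -0.97 ± 0.31 (adjusted p = 0.0154, limma), and in WT HFD it stood at 0.02 ± 0.34. Without WT alcohol tumour replicate 5 or 6 that call was lost (-0.86, adjusted p = 0.0713, and -0.63, adjusted p = 0.162, limma). Abcc4 was called higher in WT HFD, at 2.43 ± 0.62 (adjusted p = 0.00963), and in IL17RA-/- alcohol, at 1.34 ± 0.51 (adjusted p = 0.0391, limma). In WT alcohol it was at 0.95 ± 0.56 and in IL17RA-/- HFD at 0.69 ± 0.62, neither called.

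The calls on Abcc4 in single combinations depended on few libraries, and those on Abcc2 lay close to the threshold. The call on Abcb4 in IL17RA-/- alcohol was lost without tumour replicate 6 (-0.63, adjusted p = 0.0539, limma). For Abcc4 in IL17RA-/- alcohol, leaving out non-tumour replicates 2 and 4 together gave 0.50 (adjusted p = 0.447, limma), and the call was also lost without non-tumour replicate 2 or 4 or tumour replicate 5, 6 or 7 alone, at 0.95 to 1.41 (adjusted p from 0.0562 to 0.134). For Abcc4 in WT HFD it was lost without non-tumour replicate 2, at 2.22 (adjusted p = 0.053), and without the 4 doubted libraries, at 2.27 (adjusted p = 0.059, limma). Abcc2 was called higher in IL17RA-/- alcohol (0.41, adjusted p = 0.0462) and in WT HFD (0.60, adjusted p = 0.039, limma), and kept these calls in 11 and 24 of 29 fits that left out a single library. In IL17RA-/- alcohol the Abcc2 call was lost even when the library left out was in neither group. An example was WT alcohol non-tumour replicate 1 (0.41, adjusted p = 0.0513, limma). In WT HFD Slco1a1 kept its call in 25 of 29 such fits, Slco1a4 in 27, Abcb4 in 24 and Abcb11 in 28, with every difference still negative. Most of these fits left out a library of neither group, which cannot change the difference. All losses in WT HFD, those of Abcc2 included, came without a library of the 2 groups. Slco1a1 lost its call without non-tumour replicate 1 or 2 or tumour replicate 5 or 6. Abcb4 lost it without any 1 non-tumour replicate and without tumour replicate 5 or 6. The lowest sizes in WT HFD came without non-tumour replicate 2 for Slco1a1 (-2.10, adjusted p = 0.24) and without tumour replicate 5 for Slco1a4 (-1.65, adjusted p = 0.12), Abcb4 (-0.53, adjusted p = 0.287) and Abcb11 (-0.90, adjusted p = 0.106, limma).

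**Figure D3:**
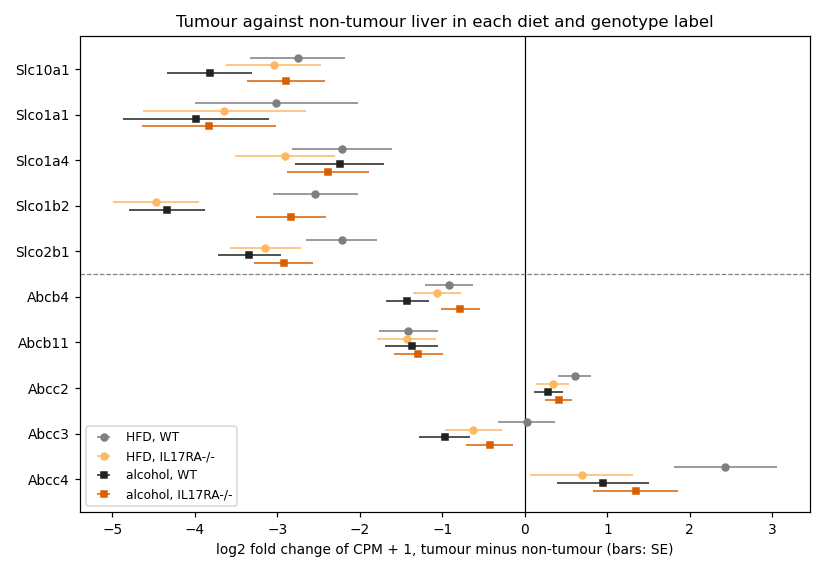
Log2 difference of tumour minus non-tumour liver for each gene in the 4 combinations of diet and genotype label; points are limma estimates on log2(CPM + 1) and bars SE, with uptake genes above the dashed line and export genes below. Uptake genes lie at -2.22 or further left in every combination, and Abcc4 ranges from 0.69 to 2.43.

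Whether the difference between tissues itself depended on genotype or diet was tested with interaction terms, and 0 members were called in either (0% of all genes in both, with 1266 and 499 genes at an unadjusted p under 0.05, and 0 called with limma-voom). For genotype the estimate for Slco1b2 was -0.22 (95% interval -1.20 to 0.77), since IL17RA-/- gave -3.65 and WT -3.44 averaged over diets. This average joins opposite orders. On HFD IL17RA-/- gave -4.47 and WT -2.54, and on alcohol -2.84 and -4.34. Whether the genotype difference depended on diet was not tested. For Abcc4 it was -0.67 (-1.87 to 0.53), with effects of 1.02 and 1.69. Here too the order reversed, at 0.69 and 2.43 on HFD and 1.34 and 0.95 on alcohol. For diet, alcohol minus HFD, Slc10a1 was at -0.46 (-1.56 to 0.64) and Slco1a1 at -0.58 (-2.47 to 1.32). The intervals are wide, above all for Slco1a1, so these fits do not show that the tissue difference was alike across genotypes or diets.

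To set uptake against export, the mean log2(CPM + 1) of the 5 export genes was subtracted from that of the 5 uptake genes in each library, as a description with no test. The value was -0.40 ± 0.51 (SD, n = 16, range -1.08 to 0.75) in non-tumour liver and -3.30 ± 0.60 (n = 13, range -4.38 to -2.50) in tumours, so the tissues did not overlap. The difference between tissues was -2.91, with uptake means of 7.85 and 4.71 and export means of 8.24 and 8.01 in non-tumour liver and tumours. Among tumours the group means were -3.43 ± 0.85 in WT HFD, -3.45 ± 0.28 in IL17RA-/- HFD, -3.44 ± 0.86 in WT alcohol and -2.999 ± 0.454 in IL17RA-/- alcohol, within each other's spread. The highest values in non-tumour liver, 0.75 and 0.43, belonged to IL17RA-/- alcohol replicates 2 and 4.

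**Figure D4:**
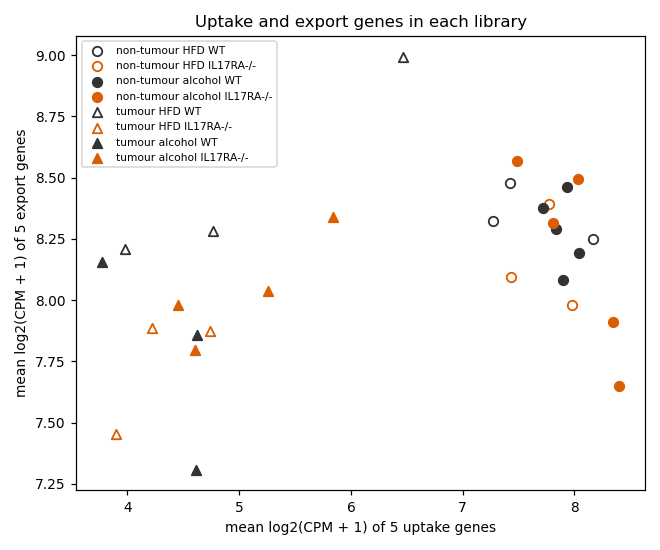
Mean log2(CPM + 1) of the 5 export genes against that of the 5 uptake genes, 1 point per library (open symbols HFD, filled alcohol, circles non-tumour, triangles tumour). Tumours lie between 3.77 and 6.46 on the uptake axis and non-tumour libraries between 7.27 and 8.40, while the export values of the tissues overlap.

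Within a tissue, 0 members were called in any of the 4 comparisons of genotype or the 4 of diet. The share of all genes called was 0% in non-tumour liver in all 4, and likewise 0% for genotype in alcohol tumours and for diet in IL17RA-/- tumours; limma-voom also called 0 genes in these. It was 1.61% for genotype in HFD tumours and 0.00754% for diet in WT tumours. Members at an unadjusted p under 0.05 numbered 1, 0, 1 and 1 in the non-tumour comparisons (IL17RA-/- against WT on alcohol and on HFD, then alcohol against HFD in WT and in IL17RA-/-), and 1, 2, 3 and 1 in the same order in tumours. Over all genes, 330, 461, 541 and 745 of 12829 were under that level in non-tumour liver and 261, 2986, 2126 and 293 of 13269 in tumours, so the 2 members in HFD tumours stood beside 22.5% of all genes and the 3 in WT tumours beside 16%. In non-tumour liver these were Slco1a4 in IL17RA-/- against WT on alcohol (0.88 ± 0.41, unadjusted p = 0.0467, adjusted p = 0.999985), Slc10a1 for alcohol against HFD in WT (0.53 ± 0.24, unadjusted p = 0.0437, adjusted p = 0.875) and Abcb11 for the same in IL17RA-/- (0.43 ± 0.19, unadjusted p = 0.0416, adjusted p = 0.858, limma). Each moved by over 1.5 times without 1 library. Slco1a4 was at 0.46 without IL17RA-/- alcohol replicate 1, which held 129 CPM against 24.2 to 33.6 in the others of its group, Slc10a1 at 0.24 without WT HFD replicate 1, and Abcb11 at 0.28 without IL17RA-/- HFD replicate 3.

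The member closest to a call between genotypes was Abcc4 in HFD tumours, where the libraries labelled IL17RA-/- (17, 28.3 and 47.2 CPM) lay below WT (183, 151 and 119 CPM) without overlap. The log2 difference was -2.35 ± 0.58 (adjusted p = 0.0566, limma; 1% of all genes called lower and 0.603% higher). It passed after median-ratio rescaling (-2.27, adjusted p = 0.0482) and without WT alcohol tumour replicate 4, which is in neither group (adjusted p = 0.0386). Without the 4 libraries doubted in earlier work on these data, among them WT HFD tumour replicate 4, it was -2.20 with an adjusted p of 0.194 (limma). The split of all calls in this comparison also moved with scaling, from 80 higher and 133 lower to 416 and 200, and to 0 and 2 without those 4 libraries. Leaving out 1 library gave from 0 and 0 (IL17RA-/- HFD replicate 4 or 6) to 666 and 508 (WT HFD replicate 5). Summed cholangiocyte markers were also lower in the IL17RA-/- tumours, at 260, 313 and 270 CPM against 1652, 1708 and 382 CPM in WT. Spp1 made up much of these sums, since it reached 1629 CPM among the tumours while Krt19 reached 10.3. The part of these markers in the Abcc4 difference was not tested. Slco1b2, Slco2b1 and Abcc3 were also lower without overlap in these IL17RA-/- tumours, at -1.71, -1.002 and -0.77, with adjusted p of 0.155, 0.328 and 0.236 (limma). Of all genes tested there, 16.5% were lower without overlap. Without WT HFD replicate 4 the values of Slco1b2, Slco2b1 and Abcc3 were -1.14, -0.24 and -0.48.

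On alcohol the difference in tumours had the other sign for Slco1b2, at 1.49 ± 0.63 for IL17RA-/- against WT (unadjusted p = 0.0332, adjusted p = 0.999867, limma), where IL17RA-/- replicates 5 and 7 were at 544 and 417 CPM and the other 2 at 151 and 136. Without WT alcohol replicate 4 it was 0.87. Between diets, Abcc4 in WT tumours was at 93.5, 42.8 and 12.6 CPM on alcohol and 183, 151 and 119 CPM on HFD. The log2 difference was -1.97 ± 0.58 (adjusted p = 0.199, limma), and 16% of all genes had an unadjusted p under 0.05 there. Slco1b2 and Abcc3 in the same comparison were at -1.61 and -0.97 (adjusted p = 0.273 and 0.242, limma). Without WT alcohol replicate 6 the values of Abcc4 and Abcc3 were -1.22 and -0.62, and without WT alcohol replicate 4 that of Slco1b2 was -0.99. Median-ratio rescaling moved the median of all genes from -0.17 to -0.01 there, and from -0.12 to 0.001 for genotype in HFD non-tumour liver. In IL17RA-/- tumours Slco1b2 was at 1.595 ± 0.627 for alcohol against HFD (adjusted p = 0.999858, limma).

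Among the 16 non-tumour libraries the members did not vary together as a block. Slco1a1 ran from 38.8 to 967 CPM, with a coefficient of variation of 81.8%, against 10.9% for Abcc2, 11.4% for Slco2b1 and 17.3% for Slco1b2. Of 90 pairwise relations (45 in each tissue), tested by 100000 permutations and adjusted together, 7 in non-tumour liver had an adjusted p under 0.05 by Pearson's r. Slco1a1 and Abcc4 ran opposite, with r = -0.71 (permutation p = 0.00168, adjusted 0.0151) and rho = -0.70 (permutation p = 0.00367, adjusted 0.0367). The value was -0.75 within groups, -0.68 without the 2 libraries farthest out in Slco1a1 and -0.58 without IL17RA-/- alcohol replicates 2 and 4. These 2 libraries had the highest Slco1a1 (967 and 665 CPM), the lowest Abcc4 (4.74 and 8.01 CPM) and the lowest summed Kupffer cell markers, and the part of the latter was not tested.

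**Figure D5:**
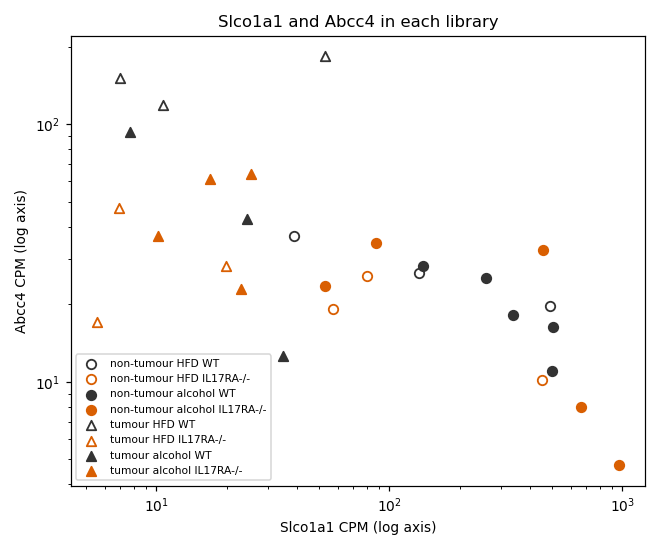
Abcc4 against Slco1a1 (CPM, both axes log) with 1 point per library. Non-tumour libraries (circles) fall from upper left to lower right, with r = -0.71 on the log2(CPM + 1) scale, and the 13 tumours (triangles) lie at 5.54 to 53 CPM of Slco1a1 with Abcc4 from 12.6 to 183 CPM.

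Abcb4 also ran opposite to Slco1a1, with r = -0.68 (permutation p = 0.00284, adjusted 0.0232) and rho = -0.66 (adjusted 0.0435), and r was -0.55 without the same 2 libraries. The bile salt pump Abcb11 ran with Slco1a1, at r = 0.75 (permutation p = 0.0005, adjusted 0.0112) and rho = 0.71 (adjusted 0.0349), and at 0.69 without the 2 farthest libraries. The basolateral pumps Abcc3 and Abcc4 had the closest relation, with r = 0.89 (permutation p = 2e-05, adjusted 0.0018) and rho = 0.79 (adjusted 0.0216), and 0.83 without the 2 farthest. Abcb4 and Abcc4 had r = 0.76 (permutation p = 0.00113, adjusted 0.0145), which dropped to 0.44 without the 2 farthest libraries and so rests largely on them. Slc10a1 and Slco1b2 had r = 0.69 (permutation p = 0.0033, adjusted 0.0247) with rho = 0.46 (adjusted 0.253), and r was 0.38 without the doubted libraries. The paralogs Slco1a1 and Slco1a4 ran opposite by r = -0.62 (permutation p = 0.00704, adjusted 0.0428) with rho = -0.50 (adjusted 0.197), where reads shared between copies could also enter.

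In the 13 tumours 9 of 45 pairs had an adjusted p under 0.05 by Pearson's r: 1 of 10 among uptake genes, 6 of 25 between uptake and export genes and 2 of 10 among export genes. Slco2b1 and Abcc4 passed by rho only (0.81, permutation p = 0.00144, adjusted 0.0216), with r = 0.62 (permutation p = 0.0196, adjusted 0.0801). Pearson's r was positive in 10 of 10 uptake pairs (median 0.53), but for Slc10a1 and Slco1a1 it went from 0.38 (permutation p = 0.197, adjusted 0.354) to -0.10 without the 2 farthest tumours. The uptake pair that passed was Slco1a4 with Slco1b2 (r = 0.83, permutation p = 0.00046, adjusted 0.0112, and 0.71 without the 2 farthest). Slc10a1 ran with the phospholipid flippase Abcb4 (r = 0.85, permutation p = 0.00016, adjusted 0.0072, and 0.73 without the 2 farthest), and Slco1a4 with Abcb11 (r = 0.81, permutation p = 0.00069, adjusted 0.0124, and 0.79). Slco1a4 also ran with Abcb4 (r = 0.80, permutation p = 0.00093, adjusted 0.0139, and 0.77). Slco1b2 passed by r with Abcb4 (r = 0.70, permutation p = 0.00714, adjusted 0.0428, and 0.56) and with Abcb11 (r = 0.70, permutation p = 0.00851, adjusted 0.0479, and 0.65), but not by rho, at 0.59 (permutation p = 0.0384, adjusted 0.182) and 0.66 (permutation p = 0.0174, adjusted 0.0977). Without the doubted libraries r was 0.38 for Slco1b2 with Abcb4 and 0.60 for Slco1b2 with Abcb11. Among the Abcc genes, Abcc2 ran with Abcc3 (r = 0.79, permutation p = 0.00149, adjusted 0.0149, and 0.69) and Abcc3 with Abcc4 (r = 0.79, permutation p = 0.00136, adjusted 0.0149, and 0.59). Slco1a1 and Abcc4 had r = -0.03 in tumours (permutation p = 0.911, adjusted 0.943), but -0.70 without the 2 farthest libraries and -0.42 without the doubted ones, so the value rests on few tumours, and the difference between tissues was not tested. Slco1a1 and Abcb11 had r = 0.72 in tumours (permutation p = 0.00578, adjusted 0.04).

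The genes whose pattern was most like that of 4 of the transporters were ranked by Pearson's r of log2(CPM + 1) over the 29 libraries, which the gap between tissues dominates, so r within each tissue is given after it (16 non-tumour, then 13 tumour libraries). For Slc10a1 they were Rdh7, a retinol dehydrogenase (0.98, then 0.85 and 0.88), Ccs, the copper chaperone of superoxide dismutase (0.97, 0.70 and 0.88), and Ptprd, a receptor tyrosine phosphatase (0.97, 0.77 and 0.82). For Slco1a1 they were Cyp7b1, an oxysterol hydroxylase (0.97, 0.95 and 0.91), the complement gene C8b (0.96, 0.97 and 0.69) and the major urinary protein Mup7 (0.96, 0.91 and 0.79), the last of a family of near-identical copies. Abcb11 was most like Srd5a1, a steroid reductase (0.95, 0.79 and 0.87), Mup14 (0.95, 0.83 and 0.82) and the aldehyde oxidase Aox3 (0.95, 0.83 and 0.84). Abcc4 was most like Cbr3, a carbonyl reductase (0.92, 0.94 and 0.85), the sulfiredoxin Srxn1 (0.90, 0.90 and 0.83) and the cystine transporter Slc7a11 (0.88, 0.61 and 0.92).

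Other genes of the same pathways were read from fixed lists in the mean comparison of tumour with non-tumour liver, in which the median over all genes was 0.09. Of 16 other sinusoidal and basolateral transporters tested, 5 were higher and 7 lower (median 0.24). Abcc5, a nucleotide analog pump, rose from 17.4 ± 6.79 to 76.2 ± 22.7 CPM (log2 difference 2.14 ± 0.19) and the prostaglandin carrier Slco2a1 from 35.8 ± 16 to 59.2 ± 25.5. The organic anion carrier Slc22a7 fell from 15.9 ± 10.4 to 2.26 ± 2.79 and the organic cation carrier Slc22a3 from 7.89 ± 2.86 to 1.98 ± 1.88 CPM. Of 9 other canalicular transporters 3 were higher and 5 lower (median -0.53). Abcb1a, a multidrug pump, rose from 11.54 ± 6.2 to 37.6 ± 13.8 CPM and the copper pump Atp7b from 39.2 ± 5.9 to 60.1 ± 19.2, while the efflux pump Abcg2 fell from 164 ± 30.2 to 58.8 ± 21 and the cation extruder Slc47a1 from 117 ± 16.9 to 42.7 ± 16.9 CPM. Among 15 canalicular trafficking and tight junction genes 5 were higher and 4 lower (median 0.12). The tight junction gene Cldn1 rose from 59.3 ± 19.1 to 145 ± 44 CPM, and the scaffold gene Pdzk1 fell from 72.6 ± 6.99 to 46.7 ± 16.7, as did Stx3, a membrane fusion gene, from 14.8 ± 3.66 to 9.25 ± 2.42 CPM.

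Of 22 tested nuclear receptors and regulators of these transporters, 11 were lower and 3 higher (median -0.34). The growth hormone receptor Ghr fell from 658 ± 123 to 135 ± 41.2 CPM (-2.30 ± 0.12) and the xenobiotic receptor CAR (Nr1i3) from 139 ± 51 to 27.3 ± 14.2 (-2.34 ± 0.23), while the retinoid receptor Rarg rose from 4.34 ± 1.38 to 17 ± 4.08 and Nr5a2, a regulator of bile acid synthesis, from 58.4 ± 8.77 to 69.4 ± 11.52 CPM. Nr1h4, which encodes FXR and is named here after its value was seen, fell from 119 ± 16.2 to 50 ± 17.6 CPM (-1.27 ± 0.12). Bile acid synthesis and conjugation genes were mostly lower: 15 of 17 fell and 1 rose (median -1.87). The sterol hydroxylases Cyp8b1 and Cyp7b1 fell from 274 ± 99.7 to 18.8 ± 33.9 and from 299 ± 214 to 14.3 ± 16.2 CPM, and Cyp39a1, which hydroxylates another oxysterol, rose from 16.8 ± 8.69 to 84 ± 29 CPM.

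The NRF2 target list went both ways, with 6 of 15 higher and 5 lower (median 0.17). Slc7a11 rose from 12.9 ± 21.4 to 178 ± 212 CPM and Cbr3 from 8 ± 5.95 to 46.9 ± 51.6, while the malic enzyme Me1 fell from 162 ± 55.7 to 71 ± 50.3 and Ugdh, which makes UDP-glucuronate, from 268 ± 43.3 to 191 ± 150.2 CPM. Of 12 CAR and PXR targets 10 fell and 1 rose (median -1.21), with Cyp3a11 falling from 3659 ± 1603 to 565 ± 437 CPM, the carboxylesterase Ces2a from 169 ± 63.4 to 29.9 ± 13.4, and Cyp2b9 rising from 71.8 ± 64.5 to 298 ± 119. Of 14 male-biased liver genes 12 fell and 0 rose (median -2.26), among them Elovl3, a fatty acid elongase, from 162 ± 158 to 5.17 ± 6.07 CPM. Of 15 female-biased genes 6 rose and 1 fell (median 0.54), with Cyp2a4 rising from 254 ± 282 to 3230.4 ± 1618 and Abcd2, a peroxisomal transporter, from 29.1 ± 17.5 to 161 ± 43, while Acot3 fell from 13.2 ± 13.1 to 1.42 ± 1.87 CPM. Cyp7b1 is on the male-biased list as well as on that of bile acid synthesis, and Cyp2b9 on the female-biased list as well as on that of CAR and PXR targets. In HFD tumours 3 genes of these lists were called lower in IL17RA-/- than in WT: Abcb1b at -1.62 ± 0.27 (adjusted p = 0.0315), Me1 at -1.56 ± 0.31 (adjusted p = 0.0373) and Ephx1 at -0.87 ± 0.19 (adjusted p = 0.0436, limma). Over all genes 1% were called lower and 0.603% higher there. Without IL17RA-/- HFD tumour replicate 4 or 6, 0 genes were called in that comparison, so these 3 calls were lost. Without the 4 doubted libraries only 2 of all genes were called lower.

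Cell type markers moved with tissue beside the transporters. Of 12 hepatocyte markers 5 were higher and 5 lower in tumours, and their summed level was higher, at a median of 214271 against 109902 CPM. Albumin made up much of this sum, at a median of 104262 CPM in tumours against 39296, so the sum does not describe the markers singly. Hpd was at a median of 113 CPM in tumours against 1361, Tat at 506 against 1696, Cps1 at 1895 against 4919 and Ttr at 2082 against 3396. Of 8 cholangiocyte markers 7 were higher, with a sum of 130 to 1708 CPM in tumours against 50.2 to 166. Much of this sum was Spp1, at a median of 245 CPM in tumours against 44.1, and Krt19 was at a median of 1.61 against 0.443 CPM. Of 10 Kupffer cell markers 8 were lower, with sums of 176 to 667 against 246 to 1957 CPM. All 6 proliferation markers and all 5 tested markers of DEN tumours, such as Afp and Gpc3, were higher. The summed DEN tumour markers still overlapped, at 258 to 1039 CPM in tumours and 6.83 to 468 in non-tumour liver. The highest non-tumour sums were in 2 doubted libraries, IL17RA-/- HFD replicate 3 at 468 and WT HFD replicate 1 at 222 CPM. The lowest tumour sum was in WT HFD replicate 4, also doubted. Stellate cell markers were higher in 5 and lower in 2 of 8, endothelial in 1 and 1 of 8, T and NK cell markers in 2 and 0 of 5, and B cell markers in 0 and 0 of 4. The part of these shifts in the transporter differences was not tested.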

How the data were processed

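RNA from tumour and non-tumour mouse liver was sequenced as polyA-selected stranded libraries, per the labels' protocols. The submitters' processing notes list STAR 2.5.1a, RSEM 1.3.0 and GRCm38, with no order, and the annotation was not given in the sources used here. Expression values were deposited as CPM, with a column for each library. Symbols came from GENCODE M21: 21653 IDs had a symbol and 534 had none (0.138% of counts). Counts were recovered from the step of the CPM values, and 83.4% to 86.2% of nonzero values were whole within 0.002 counts. The floor of 3 counts covers counting error only.

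Tests used limma 3.58.1 with a variance trend (R 4.3.3) on log2(CPM + 1), which understates the change of low genes. A gene was tested if 3 or more libraries in the fit reached 1 CPM, and all 10 members were tested in every fit. P-values were two-sided and adjusted over all tested genes by Benjamini-Hochberg, with calls under 0.05. Comparisons between tissues and interactions were fitted on all 29 libraries, the others on the 16 non-tumour or 13 tumour libraries. Scripts were tested on simulated data. The members and lists were chosen with earlier results of these data known, and the fits without 4 and without 2 libraries were chosen after seeing the data. All members were named. Of each list the called genes at 5 CPM or more were named that had the largest increase or decrease, at most 2 each way, and for 4 members the 3 genes most correlated with each, leaving out members and predicted genes. Slp and H19 were not matched by symbol. A result that this rule would name is not reported here. Whether replicate numbers pair libraries was checked by the correlation of deviations from group means. Only for alcohol against HFD in WT non-tumour liver did all 3 pairs exceed 0.1, at 0.13 to 0.34. Promoters came from RefSeq (GRCm38.p6). Results were recomputed with a pseudocount of 0.1, without the expression filter, after median-ratio rescaling, with limma-voom, on the compared groups alone, with a replicate block, and without each library in turn.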

Additional observations from a re-analysis of the deposited data

Results flagged for a closer look

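In the groups of 4 or 5 libraries, 3 of 30 combinations of gene and group held a library far from the others by Dixon's criterion, which chance alone meets in about 1 of 20. Slco1a4 was at 46.8 CPM in WT alcohol non-tumour replicate 3, against 12.6 to 19.8 CPM in the other 4 libraries. It was at 129 CPM in IL17RA-/- alcohol non-tumour replicate 1, against 24.2 to 33.6 CPM. Slco2b1 was at 153 CPM in IL17RA-/- alcohol non-tumour replicate 3, below the 179.5 to 189 CPM of the others.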

How the results depend on the processing

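In the mean comparison of tumour with non-tumour liver all 10 members were called in the same direction under every alternative run. The difference between uptake and export, -2.91, was -2.77 without the 2 outlying non-tumour libraries and -3.09 without the 4 doubted ones. It was -2.41 when the median of the log2 values replaced their mean. For WT HFD the 9 calls became 3 when only those 2 groups were fitted and 4 to 9 when single libraries were left out, with 4 without tumour replicate 5 and 5 without non-tumour replicate 2. For genotype in HFD tumours the 0 calls became 1 (Abcc4) after median-ratio rescaling, and 0 to 1 when single libraries were left out. Of the recomputed values of member differences that had been called, 1489 kept their call, 66 lost it and 0 changed sign, and the cause was not tested. In single combinations many of these fits left out a library of neither group, which cannot change the difference or its sign. The tally is thus no measure of how stable the calls are. Differences that were not called changed sign in places, such as Abcc3 between tissues in WT HFD, at 0.02 and at -0.37 without the 4 doubted libraries. With the replicate block, 7 members stayed called in WT alcohol and 6 in IL17RA-/- alcohol between tissues, and 0 within tissues. This includes alcohol against HFD in WT non-tumour liver, where limma called 0 genes with and without the block. There all 3 shared replicate numbers correlated above 0.1, but no label pairs these libraries. Depth limited Slco1a4, Slco1a1 and Abcc4 most, with as few as 11, 34 and 34 recovered counts in a library.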
